A study of Homo sapiens with 4 samples.

Results

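Pleiotrophin (PTN) and midkine (MDK) make up a family of 2 small secreted growth factors, examined here together with 5 of the cell-surface proteins that bind them: PTPRZ1, SDC3, ALK, NCL and LRP1. The 7 genes were represented by 11 of the 41000 probes of the Agilent Whole Human Genome array, and all 11 had signal well above background. A probe was taken as a member if its accession belonged to 1 of these genes. The genes were selected on their log2 ratios in the same arrays: PTN was chosen by its ratios, which ran in opposite directions in the 2 knockdown clones, and MDK is on the study's own list of lowered genes from the same arrays, whereas the binding proteins were added for their known interaction with the growth factors. The ratios of the members are therefore given as descriptions, without a test.

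Total RNA came from A2780s, an established human ovarian adenocarcinoma cell line grown as an adherent culture. The knockdown clones sh-G1 and sh-G2 are single puromycin-resistant clones that stably carry the same GALNT3 shRNA in the pSilencer 4.1 puro vector, and ctrl is a single clone mock-transfected with that vector and selected in the same way. GALNT3 encodes a transferase that starts mucin-type O-glycosylation. Of the 4 arrays, 2 paired sh-G1 with ctrl and 2 paired sh-G2 with ctrl. The knockdown RNA carried Cy5 on replicate 1 of each clone and Cy3 on replicate 2. A difference between a knockdown clone and ctrl cannot be told apart from a difference between any 2 clones of the line, since there is 1 ctrl clone and the 2 arrays of a knockdown clone may hold the same RNA extract.

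Both growth factors are basic proteins that hold tightly to heparan sulfate and chondroitin sulfate chains on the cell surface and in the matrix. Through these chains and through receptor proteins they act on neurite outgrowth, migration, survival and vessel growth, mostly during development, and both are found in many tumours. Pleiotrophin binding is known to inactivate the receptor-type tyrosine phosphatase PTPRZ1, so that its substrates stay phosphorylated, while SDC3 (syndecan-3) is a heparan sulfate proteoglycan that carries the growth factor. ALK is a receptor tyrosine kinase proposed as a further signalling receptor, NCL (nucleolin) is a nucleolar protein that also reaches the cell surface, and LRP1 is a large endocytic receptor that binds midkine.

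The start of PTN is shown because PTN carries the main contrast between the clones. The segment from 250 bases before to 50 bases after the start lies at chr7:137343684-137343983 on the minus strand (GRCh38.p14, RefSeq) and is printed 5′ to 3′, with the match to CCAAT in capitals.
PTN: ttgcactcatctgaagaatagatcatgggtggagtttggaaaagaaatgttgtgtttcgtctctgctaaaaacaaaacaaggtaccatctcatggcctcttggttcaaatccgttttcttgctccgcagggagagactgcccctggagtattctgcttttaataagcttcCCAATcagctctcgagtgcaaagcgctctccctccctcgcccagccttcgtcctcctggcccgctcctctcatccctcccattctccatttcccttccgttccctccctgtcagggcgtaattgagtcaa
Short motifs were searched on both strands in this window. It holds CCAAT once, as do 34.6% of the 35116 RefSeq promoter windows at least once, but neither TATAAA, found in 11.5%, nor GGGCGG, found in 45.0%. Its GC content was 50.3% and it had 10 CpG dinucleotides, against medians of 58.7% and 14 over all windows. The corresponding windows of PTPRZ1, SDC3, NCL and LRP1 had between 23 and 46 CpG dinucleotides, and each held GGGCGG. ALK has 2 such windows, 1 with 28 CpG dinucleotides and GGGCGG and 1 with 2 CpG dinucleotides and no GGGCGG.

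Log2 ratios of knockdown over ctrl were obtained from the median spot intensities after background correction and loess normalisation within each array. GALNT3 itself was faint in every RNA, with a mean normalised log2 intensity of 6.32 in ctrl, 6.30 in sh-G1 and 6.33 in sh-G2. It was well above background on all 4 ctrl channels but in the knockdown channel on only 1 of 2 arrays of each clone. Its log2 ratios were -0.09 and 0.08 for sh-G1 and 0.13 and -0.15 for sh-G2, so its single probe (A_24_P114249) does not check the labels. Replicate 2 of sh-G2 had the fewest spots well above background in the knockdown channel, 88.1% against at least 95.4% on the other arrays. All 9 epithelial markers were well above background on every channel, but so were all 4 leukocyte markers, so this mark alone does not show expression. The epithelial keratins KRT8 and KRT18 and the fibroblast-associated genes DCN and LUM were at least 1.5-fold lower on both arrays of each clone, and PDGFRB was lower on both arrays of sh-G2, while 0 of the 4 leukocyte and 0 of the 3 endothelial markers passed this threshold. The summed level of the 9 epithelial markers was 12.91 to 13.16 in the knockdown clones and 14.03 to 14.25 in ctrl on the log2 scale. Of these 9, KRT8 and KRT18 were lower by the 1.5-fold threshold and the other 7 did not pass it in either clone. Among the 7 were PAX8 (-0.13 and 0.11 in the clones), CDH1 (-0.01 and -0.01) and EPCAM (-0.55 and -0.12), which came near the threshold in sh-G1. The summed level of the 3 fibroblast markers measured, of 4 listed, was 10.68 to 10.96 in sh-G1, 12.87 to 12.95 in sh-G2 and 14.90 to 15.02 in ctrl, and the part of these markers in the results for PTN and MDK was not tested.

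PTN was measured by 2 probes, both assigned to its RefSeq transcript NM_002825. The brighter probe, A_23_P303087, had log2 ratios of -2.56 and -2.35 in sh-G1 and of 3.48 and 3.58 in sh-G2. The level of PTN RNA was thus 5.50-fold lower in sh-G1 and 11.6-fold higher in sh-G2 than in ctrl, and the 2 arrays of a clone lay close together (SD over the arrays 0.15 and 0.07 on the log2 scale). The second probe, A_24_P870620, had log2 ratios of -1.39 and -1.16 in sh-G1 and of 2.94 and 3.14 in sh-G2. It went the same ways with smaller ratios, 2.42-fold lower and 8.23-fold higher. Whether fewer cells contained PTN RNA or each cell contained less of it cannot be told apart in bulk RNA.

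The spot intensities of PTN showed the contrast before any normalisation. For A_23_P303087 the knockdown channel read 82 and 79.5 in sh-G1, over a local background of 37 and 41, whereas it read 9246 and 12134.5 in sh-G2. In the ctrl channel of the same arrays it read 881 and 465.5 beside sh-G1 and 1301 and 902 beside sh-G2. The sh-G1 signal was thus faint, and its ratio moved with the treatment of background. Without the offset of 50 added after background correction the log2 ratio in sh-G1 was -3.44, and the ratio of the scanner software gave -3.64. The second probe moved less, to -1.61 and -1.65.

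**Figure D1:**
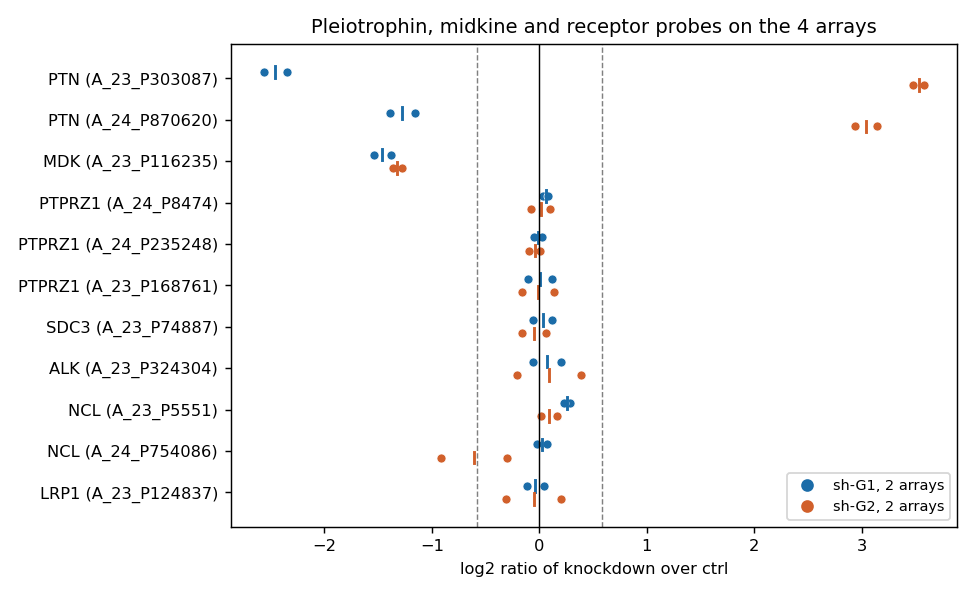
Log2 ratio of knockdown over ctrl for the 11 probes of the 7 genes. Each point is 1 array, the short vertical bars are the mean of the 2 arrays of a clone, and the dashed lines mark a 1.5-fold difference. PTN lies on opposite sides in sh-G1 (-2.46 and -1.27) and sh-G2 (3.53 and 3.04), MDK lies on the lower side in both, and the remaining probes lie near 0 except for 1 NCL probe in sh-G2.

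On the scale of normalised log2 intensity in each channel, the order of the PTN level was sh-G2, ctrl and sh-G1. For A_23_P303087 the level was 13.33 and 13.47 in sh-G2, 6.78 and 6.66 in sh-G1, and between 9.01 and 9.89 in ctrl over the 4 arrays. The faintest probes still well above background on the sh-G1 arrays had levels of 6.20 and 6.04 in the knockdown channel. For A_24_P870620 the level was 12.49 and 12.72 in sh-G2, 7.47 and 7.46 in sh-G1 and between 8.62 and 9.58 in ctrl. None of these ranges overlapped, but PTN was chosen for its opposite ratios on these arrays, so nothing is read from this. The ctrl channel did not read PTN alike on all arrays, as the level beside sh-G2 exceeded that beside sh-G1 by 0.69 with the first probe and 0.82 with the second, or 1.62-fold and 1.77-fold. Over all probes kept, the middle 95% of this difference lay between -0.36 and 0.35. Among the 14 other probes that were at least 4-fold higher on both arrays of sh-G2, it lay between -0.19 and 0.41. With the ctrl level of the other clone's arrays in place of its own, the ratio from the first probe was -3.15 (sh-G1) and 4.22 (sh-G2) on the log2 scale. The labels do not say whether 1 ctrl extract was used on all arrays, and they spell the line of ctrl in 2 ways, which go with the dye of ctrl and not with the clone beside it. The source of the difference was not tested.

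MDK, the other member of the family, was lower in both clones. Its single probe, A_23_P116235, assigned to the transcript variant NM_001012334, had log2 ratios of -1.54 and -1.38 in sh-G1 and of -1.28 and -1.36 in sh-G2. MDK RNA was thus 2.75-fold lower in sh-G1 (SD 0.11 on the log2 scale, 2 arrays) and 2.50-fold lower in sh-G2 (SD 0.06). The clones differed by 0.14 on the log2 scale, which is of the size of the spread between the arrays of sh-G1. The spot intensity of MDK was high throughout, between 12727 and 18418.5 in the knockdown clones and between 35771.6 and 63925.6 in ctrl. The normalised level in ctrl was between 15.37 and 15.51, in sh-G2 14.23 and 14.01, and in sh-G1 13.90 and 13.99, so that the knockdown clones both lay below ctrl and next to each other. In sh-G1, PTN and MDK were therefore both lower than in ctrl, and in sh-G2 PTN was higher and MDK lower.

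**Figure D2:**
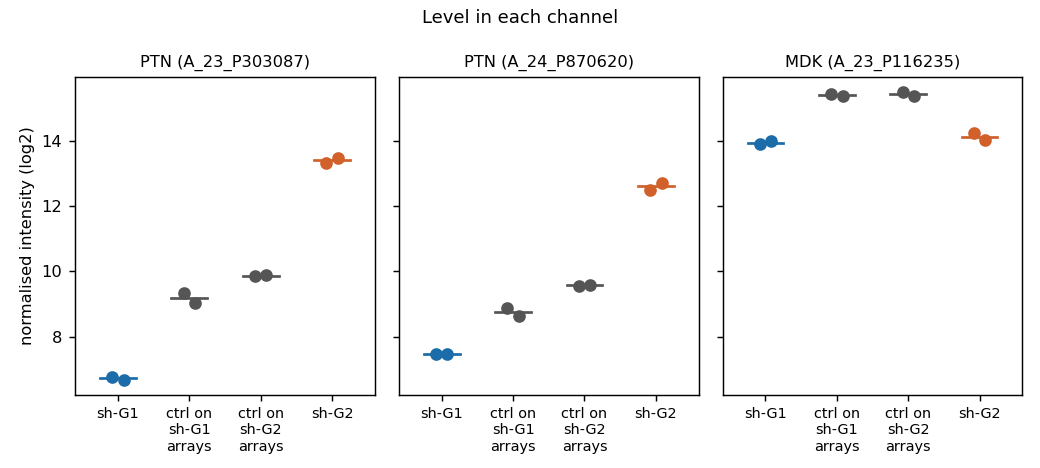
Normalised log2 intensity of the PTN probes and the MDK probe in each RNA. Points are single arrays and lines their mean, with ctrl shown apart for the arrays of sh-G1 and of sh-G2. PTN rises from sh-G1 over ctrl to sh-G2, with the ctrl level 0.69 and 0.82 higher beside sh-G2, and MDK lies lower in both knockdown clones than in ctrl.

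The receptor PTPRZ1 was measured by 3 probes, all on NM_002851. The brightest, A_24_P8474, had log2 ratios of 0.04 and 0.08 in sh-G1 and of -0.08 and 0.10 in sh-G2. The other probes, A_24_P235248 and A_23_P168761, had means between -0.04 and 0.00 in the clones. With this normalisation, no PTPRZ1 probe differed from ctrl by more than 0.17 on any array in either direction. Between the clones the PTN means differed by 5.99 on the log2 scale, and those of the PTPRZ1 probes by 0.05 or less. The PTPRZ1 probes had mean levels of 9.08, 8.35 and 8.02 in ctrl, and 28.9% to 47.8% of the probes kept were no brighter. Whether the line expressed PTPRZ1 was not tested.

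SDC3 had log2 ratios of -0.06 and 0.12 in sh-G1 and of -0.16 and 0.06 in sh-G2 (A_23_P74887). The arrays of each clone thus lay on both sides of 0. ALK had 0.20 and -0.06 in sh-G1 and 0.39 and -0.21 in sh-G2 (A_23_P324304), again on both sides of 0 in each clone. For both genes the spread between dye-swapped arrays was larger than the mean difference from ctrl. Their mean levels in ctrl were 9.31 (SDC3) and 8.96 (ALK), with 51.3% and 46.3% of the probes kept no brighter. Whether the line expressed either gene was not tested.

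LRP1 was printed in 10 spots per array (A_23_P124837), which gives the error of a single spot. After removal of marked spots, 9 or 10 spots per array had an SD between 0.11 and 0.16 on the log2 scale. The LRP1 ratio was -0.12 and 0.04 in sh-G1 and -0.31 and 0.20 in sh-G2. In both clones the array with the knockdown RNA in Cy5 read lower than the one with it in Cy3. The difference between the arrays of a clone exceeded the SD of the spots in both clones, though only narrowly in sh-G1. The means, -0.04 in sh-G1 and -0.05 in sh-G2, were smaller than the spread between arrays. The mean level of LRP1 in ctrl was 8.18, with 31.4% of the probes kept no brighter, and its expression in the line was not tested.

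NCL was the member for which the probes disagreed. The brighter probe, A_23_P5551, had log2 ratios of 0.28 and 0.23 in sh-G1 and of 0.02 and 0.17 in sh-G2. The other probe, A_24_P754086, was at -0.02 and 0.07 in sh-G1 and at -0.92 and -0.30 in sh-G2. In sh-G2 the mean of the latter was -0.61 (SD 0.44, 2 arrays), so it passed 1.5-fold on replicate 1 but not on replicate 2. Both probes are assigned to NM_005381, and no direction for NCL in sh-G2 can be read from them.

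By the study's selection rule, a difference of at least 1.5-fold on both arrays of a clone, 3 of the 11 probes were lower in sh-G1 (both of PTN and that of MDK) and 0 were higher. Over all 39151 probes kept, 1.25% were lower and 0.452% higher by this rule. In sh-G2, 2 probes were higher (PTN) and 1 lower (MDK), against 0.554% and 1.44% of all probes. The members were chosen with these ratios known, so nothing is read from the counts. Opposite directions at this threshold were found for 6 probes (0.0153%), and the 2 of PTN were the only ones of these that were lower in sh-G1 and higher in sh-G2. The other 4, of RBMS3, HOXA13, HOXA11-AS and FZD4, ran from higher in sh-G1 to lower in sh-G2 and were named here with their values known.

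**Figure D3:**
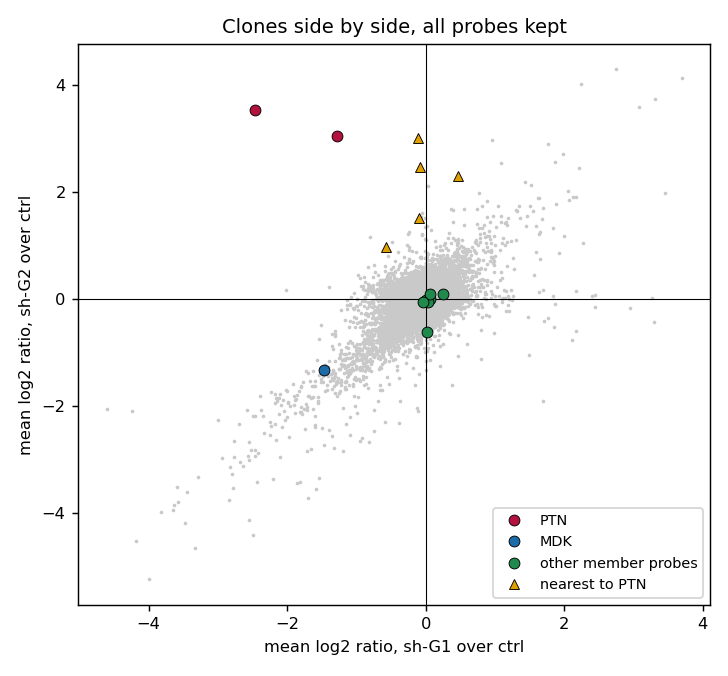
Mean log2 ratio over ctrl in sh-G1 (horizontal axis) and sh-G2 (vertical axis) for the 39151 probes kept (grey). The members and the 5 probes nearest to PTN among those with a gene symbol are in colour. The PTN probes alone are at least 1.5-fold lower on both arrays of sh-G1 and at least 1.5-fold higher on both of sh-G2. MDK lies on the diagonal of probes lower in both clones. The receptor probes lie around the origin apart from 1 NCL probe at -0.61 in sh-G2.

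Likeness to PTN was measured as the Euclidean distance between the 4 log2 ratios of a probe and those of A_23_P303087. Only kept probes with a gene symbol were ranked, so a nearer probe without a symbol would not appear. The other PTN probe was at a distance of 1.81, and a probe with no change at all would be at 6.09. The nearest probes of other genes were those of WNT5A, a secreted WNT ligand (3.42), DMD, which encodes dystrophin (3.69), PLAC8 (4.49), SLCO4C1, an organic anion transporter (4.49), and SCN9A, a voltage-gated sodium channel (4.56). All 5 were at least 1.5-fold higher on both arrays of sh-G2, and none was 1.5-fold lower on both arrays of sh-G1. The means of WNT5A were -0.11 for sh-G1 and 3.02 for sh-G2, those of DMD -0.07 and 2.47, and those of SCN9A 0.47 and 2.30. SLCO4C1 had -0.58 and 0.98, and 1 of its sh-G1 arrays passed 1.5-fold. These likenesses rest on 4 arrays that share ctrl.

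The genes next to PTN and MDK had far smaller ratios than either, and whether the line expressed these neighbours was not tested. In the RefSeq gene order (GRCh38.p14, used for the order only), the 5 nearest measured genes on each side of PTN on chromosome 7 had median log2 ratios of 0.01 (sh-G1) and -0.02 (sh-G2). CHRM2 and DGKI, the nearest on each side, had 0.07 and -0.08 in sh-G1 and 0.01 and 0.12 in sh-G2. The 10 neighbours of MDK on chromosome 11 had medians of -0.00 and -0.08, and the adjacent DGKZ and CHRM4 had 0.13 and 0.04 in sh-G1. Over all 16882 genes the medians were -0.0011 for sh-G1 and -0.0097 for sh-G2. None of the 20 neighbours was at least 1.5-fold changed on both arrays of a clone, and limma called 0 of them at an adjusted p under 0.05 (1 had an unadjusted p under 0.05). Over all genes 3.41% were changed in at least 1 clone by the first rule, and 0.184% were higher and 0.906% lower by limma, so a count of 0 among 20 genes says nothing particular about the neighbours. The neighbour with the largest mean was STMP1, at 0.42 for sh-G1 and 0.44 for sh-G2 (mean 0.43, standard error 0.04, n = 2 clones, adjusted p = 0.072 by limma). Its log2 ratios were 0.25 and 0.60 in sh-G1 and 0.21 and 0.67 in sh-G2, so replicate 1 read lower in each clone. The standard error leaves this split out, since each clone mean averages both dye orientations. STMP1 was called with the ratios of the scanner software or the series matrix, or with sh-G2 replicate 1 left out. It was also called with the mean over all probes of a gene and with clone or dye orientation as a block. It was named after its value was seen.

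**Figure D4:**
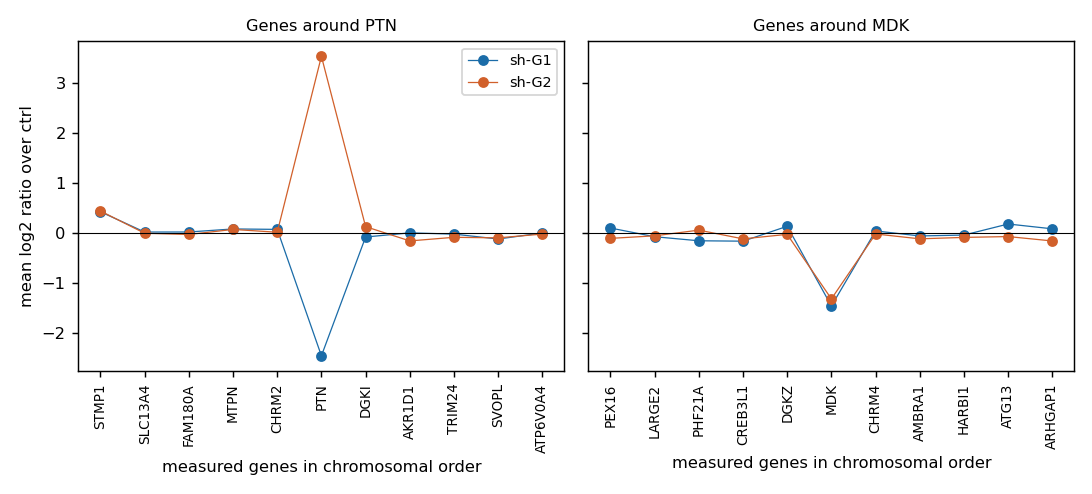
Mean log2 ratio over ctrl of the 5 measured genes on each side of PTN (left) and MDK (right), in chromosomal order and not to distance. Only the central genes leave the range from -0.17 to 0.44 in which all neighbours of both clones lie.

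Other proteins that work with pleiotrophin and midkine were examined in 4 lists with 60 genes in all, of which 59 had a probe kept. Whether the line expressed each of these genes was not tested. The mean of the clones was tested against ctrl with limma over all probes kept. This test leaves out the spread of ctrl and that between dye orientations, since each clone mean averages both orientations. Of the 59 genes, 0 were higher and 1 was lower at an adjusted p under 0.05, against 0.184% and 0.906% of all genes. An unadjusted p under 0.05 was found for 12 of the 59 and for 15.3% of all genes. With dye orientation as a replicate block, 4 list genes were lower (IRS1, SDC2, CHST7 and CHST15). That block was chosen after seeing the data and counts the arrays of a clone separately, although they may hold the same RNA extract. By the 1.5-fold rule 2 genes of the lists were lower in sh-G1 (SDC2 and IRS1) and 1 in sh-G2 (IRS1), against 1.66% and 2.05% of all genes. None was higher, against 0.658% of all genes for sh-G1 and 0.735% for sh-G2. The share changed in at least 1 clone was 3.39% in the lists and 3.41% over all genes.

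Among 19 further receptors and binding proteoglycans, 18 were measured and 0 passed the test. SDC2 (syndecan-2), a heparan sulfate proteoglycan related to SDC3, had log2 ratios of -1.08 and -0.74 in sh-G1 and of -0.64 and -0.53 in sh-G2. Its mean was -0.75 (standard error 0.11, n = 2 clones, adjusted p = 0.126 by limma), and it was called with sh-G1 replicate 2 left out (limma adjusted p = 0.0305) or sh-G2 replicate 1 left out (limma adjusted p = 0.011). Over all alternatives its limma adjusted p ranged from 0.00452 to 0.179. The list medians were 0.01 (sh-G1) and -0.00 (sh-G2). The integrin subunit ITGAV had the highest mean, 0.32.

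Of 13 genes of the ALK branch, which hold the ALK ligands ALKAL1 and ALKAL2, the related receptor LTK and signalling proteins below the receptor, IRS1 alone passed the test. IRS1, an adaptor of insulin and other tyrosine kinase receptors, had log2 ratios of -0.98 and -0.68 in sh-G1 and of -0.72 and -0.89 in sh-G2. Its mean was -0.82 (standard error 0.05, n = 2 clones, adjusted p = 0.0366 by limma), and a second probe had -0.64. With sh-G2 replicate 2 left out the limma adjusted p was 0.105, the highest over all alternatives, and the lowest was 0.000336. IRS1 is on the study's list of lowered genes from these arrays, so its direction here is not independent evidence. The list had medians of 0.04 and -0.07, and ALKAL1 and ALKAL2 had means of -0.02 and -0.04.

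The 14 genes of the PTPRZ1 branch comprised its relative PTPRG, its ligands and partners CNTN1, TNC, TNR, NRCAM and L1CAM, and substrates such as CTNNB1, FYN and GIT1. None passed the test or the 1.5-fold rule, and 0 had an unadjusted p under 0.05. Their medians were 0.04 for sh-G1 and -0.02 for sh-G2. CTNNB1 (beta-catenin) had 0.07 and -0.18, and FYN, a SRC family kinase, -0.01 and -0.23.

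The 14 enzymes that build or sulfate chondroitin sulfate, the chains that both growth factors bind, had medians of -0.04 in each clone. None passed the test, while 6 of the 14 had an unadjusted p under 0.05, against 15.3% of all genes. By the mean of the clones these 6 went both ways. CHSY1 and CHSY3 were higher (mean 0.22 each), and CHST7, CHST15, UST and DSE were lower. CHST7, CHST15 and DSE lay below ctrl on every array, but the other genes changed sign between arrays. UST had log2 ratios of 0.12 and -0.41 in sh-G1 and of 0.12 and -0.74 in sh-G2. CHSY3 had 0.53 and 0.03 in sh-G1 and 0.62 and -0.29 in sh-G2, and CHSY1 was at -0.02 on replicate 1 of sh-G2. CHST7, a chondroitin 6-O-sulfotransferase, came nearest to passing the test. Its log2 ratios were -0.83 and -0.34 in sh-G1 and -0.88 and -0.32 in sh-G2 (mean -0.59, standard error 0.05, n = 2 clones, limma adjusted p = 0.0585). Replicate 1 thus read lower in each clone, a split that the standard error leaves out. CHST15, which adds the second sulfate of the oversulfated units, had a mean of -0.37 (standard error 0.05, limma adjusted p = 0.118). Its log2 ratios were -0.28 and -0.36 in sh-G1 and -0.24 and -0.59 in sh-G2. The genes of this list were named after their values were seen.

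**Figure D5:**
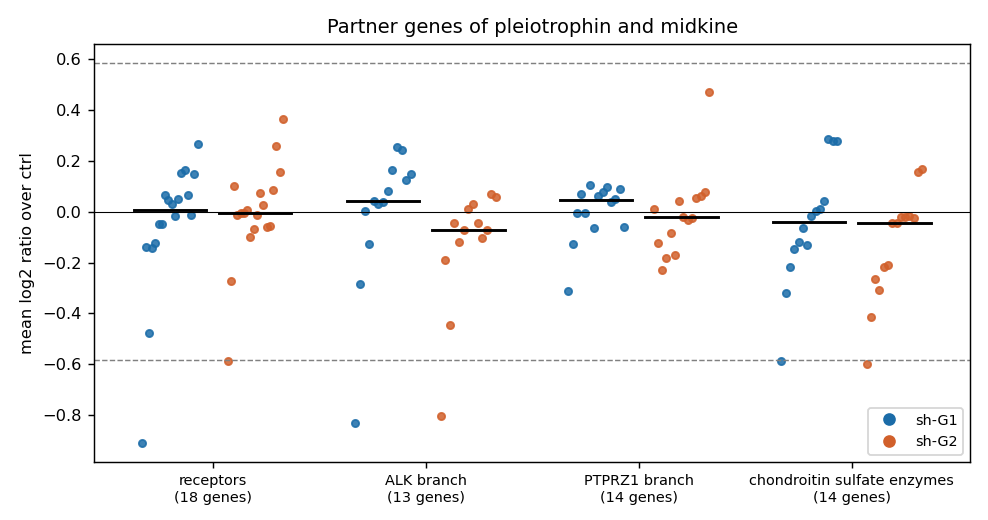
Mean log2 ratio over ctrl of the measured genes of the 4 lists in sh-G1 and sh-G2. Points are genes, ordered within a list by the mean of the clones, black bars are medians, and the dashed lines mark 1.5-fold. All medians lie between -0.07 and 0.04, and the lowest point is SDC2 in sh-G1 and IRS1 in sh-G2.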

How the data were processed

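Gene expression was measured on 4 two-colour Agilent arrays. The authors scanned them and deposited, per the file headers, the Feature Extraction 10.5.1.1 output (the labels name 8.5.1.1): for each spot the median intensity and local background intensity, and the log10 ratio of Cy5 over Cy3. The series matrix, as deposited, repeats this log10 ratio for 3 arrays. Its column for sh-G1 replicate 2 holds the error of the ratio instead and was not used.

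Spots with an outlier mark were not used. The normexp method (offset 50) corrected background, log2 ratios were normalised with loess, turned to knockdown over ctrl and averaged over spots of a probe. A probe was kept if each array had it well above background in at least 1 channel. Levels per channel were scaled between arrays (Aquantile). Probes were named through RefSeq accessions of GRCh38.p14 (25398 of 41000), and a gene is represented by its brightest probe. The deposited files hold no counts, so the number of arrays limits the precision. Sample groups followed the labels, and each dye-swapped pair counted as 1 replicate (n = 2 clones). The mean of the clones was tested with limma 3.58.1 (eBayes with trend, R 4.3.3, Benjamini-Hochberg adjustment over the probes kept, threshold 0.05), after checking the steps on simulated data. statmod 1.5.0, Python 3.11.15 and matplotlib 3.10.9 were also used.

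The members, the lists and the tests were chosen with earlier results of these data known. All member probes are named, together with list genes and neighbours past the test or the 1.5-fold rule and the 5 probes nearest to PTN among those with a gene symbol. Alternatives were other background corrections and normalisations, the software's and series matrix ratios, outlier spots kept, other filters, thresholds and tests, all probes of a gene, dye orientation as a block (added after seeing the data), and each array left out.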

Additional observations from a re-analysis of the deposited data

Results flagged for a closer look

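The 2 probes of PTN lay below ctrl on both arrays of sh-G1 and above ctrl on both arrays of sh-G2. The log2 ratio of sh-G2 exceeded that of sh-G1 by 5.99 for A_23_P303087 and by 4.32 for A_24_P870620. The difference between the clones was not tested, since the clones have 1 replicate each after averaging the dye swap and PTN was chosen for this difference.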

How the results depend on the processing

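Of 132 member values under 6 alternatives of background correction, normalisation and outlier spots, 112 moved by less than the SD of the 2 arrays, 20 moved further and 0 called values changed sign. With an array left out, the signs of means near 0 varied for ALK, LRP1, SDC3, PTPRZ1 and A_24_P754086 of NCL in sh-G1. The exception was the PTPRZ1 probe A_24_P8474 in sh-G1, which kept its sign throughout. Over the 6 alternatives the sign varied for ALK and SDC3 in sh-G1 and for each PTPRZ1 probe in sh-G1 or sh-G2. With no offset, the PTN probes A_23_P303087 and A_24_P870620 had -3.44 and -1.61 in sh-G1. The software's ratio gave -3.64 and -1.65 there, 3.66 and 3.20 for PTN in sh-G2, and -1.43 for MDK in sh-G2. For sh-G1 the series matrix gave -3.61 and -1.63 for PTN and -1.88 for MDK. For sh-G2 it gave 3.66 and 3.20 for PTN and -1.43 for MDK. Among the receptors, the series matrix (replicate 1 alone in sh-G1) gave 0.36 and 0.27 for the PTPRZ1 probes A_24_P235248 and A_24_P8474, 0.16 for SDC3 and -0.29 for LRP1 in sh-G1, and the software's ratio gave 0.06 and 0.11 for those PTPRZ1 probes. With an array left out the first PTN probe ranged from -2.56 to -2.35 and from 3.48 to 3.58, the second from -1.39 to -1.16 and from 2.94 to 3.14, and MDK from -1.54 to -1.38 and from -1.36 to -1.28.

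The number of member probes lower in sh-G2 was 2 by the mean of the 2 arrays, and between 1 and 2 with an array left out, the additional probe being that of NCL with sh-G2 replicate 2 left out. With clone as a random block, 1 list gene (ITGAV) was higher, 5 were lower (CHST15, CHST7, DSE, IRS1, SDC2) and 1 neighbour (STMP1) was higher. The lists had 2 lower genes with the software's ratio or the mean over all probes of a gene, and 3 with the series matrix. STMP1 was the 1 neighbour called under these 3. With an array left out, between 0 (sh-G2 replicate 2) and 3 (sh-G1 replicate 2) list genes were lower, 2 without sh-G2 replicate 1, and between 0 and 1 neighbours were higher. The cause was not tested. The replicate numbers mark the dye orientation: over all probes, arrays of the same number correlated at r = 0.61 and 0.73 between the clones, and the dye-swapped arrays of a clone at 0.33 and 0.19. With this orientation as a replicate block, chosen after seeing the data and counting the arrays of a clone separately, 4 list genes were lower and 1 neighbour (STMP1) was higher. The faintness of PTN in sh-G1 limits its ratio there.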
